A study of Homo sapiens with 14 samples.

Results

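The called RNA sites of 8 genes of fatty acid and sterol synthesis were examined: FASN, ACACA, ACLY, SCD, HMGCS1, SQLE, SREBF1 and SREBF2. Every called site inside these GENCODE 29 genes (GRCh38) and on the gene's strand was taken, 26 of the 22358 distinct sites of the series. They lay in 5 of the 8 genes, and 24 of the 26 were C-to-U changes. ACACA, HMGCS1 and SQLE held no called site in any library. The genes were put forward with these C-to-U sites already known, so the values below describe them and no test was made of the contrast that chose them.

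The study asked whether a prime editor changes RNA bases away from its target. All 14 libraries were total RNA of 293FT, an established line from human embryonic kidney into which the SV40 large T antigen was put. The groups were 3 libraries of non-transfected cells, 3 of cells given EGFP, 3 of cells given Cas9, 2 of cells given PE3 (a prime editor, Cas9 nickase with a reverse transcriptase, plus a guide for a nick in the unedited strand) and 3 of cells given hA3A-BE3 (Cas9 nickase with the cytosine deaminase human APOBEC3A). All titles, those of non-transfected cells included, name hRNF2. The labels state that cells in the top 15% of fluorescence were sorted 40 h after transfection, and they repeat this for the non-transfected libraries. Whether replicates were separate cultures is not stated, so the spread between them may be technical. Libraries held 3.26 to 10.6 Gb of mapped bases, if a constant of each list is read as mapped Gb. The median was 11 to 44 covering reads per called site. A list of 6 blood cell markers and a list of 6 fibroblast markers held 0 genes with a called site, but such lists show a transcript only where it carries a site and so measure no expression.

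Fatty acid synthesis starts in the cytosol, where ATP citrate lyase (ACLY) makes acetyl-CoA and acetyl-CoA carboxylase (ACACA) turns it into malonyl-CoA. Fatty acid synthase (FASN), a single chain with several catalytic domains, builds palmitate from both, and stearoyl-CoA desaturase (SCD) puts a double bond into the products. In sterol synthesis HMGCS1 makes HMG-CoA and SQLE oxidises squalene. SREBF1 and SREBF2 encode membrane-bound precursors whose N-terminal part, once released, acts in the nucleus as a transcription factor on the genes of both pathways.

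The sequences below are those that carry the values that follow: the 4 sites found in every hA3A-BE3 library, then the missense sites called in a pair of libraries, the stop codon and a site after G. They come from the spliced GENCODE 29 transcripts, 5′ to 3′, written with T for U and with the edited C as the capital.
FASN I184I: tgccctgccgccatCgtggggggcatcaa
FASN I834I: atctccccactcatCaagtgggaccacag
FASN I1888I: cacaagagctacatCatcgctggtggtct
SCD 3' UTR: ctagctgccactttCacgtggcctccgca
FASN S1675L: gctgctcatccactCgggctcgggcggcg
SCD R126C: gtctgtggagccacCgctcttacaaagct
SREBF2 Q369X: tgaagctggcaaatCaaaagaacaagctt
SREBF1 3' UTR: atagtgtaggtcagCgtgcttagcctcct

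C-to-U sites in the 8 genes were called in hA3A-BE3 cells and in no other library. The 3 hA3A-BE3 libraries held 8, 13 and 15 of them, a mean of 12 ± 3.61 (SD, n = 3), and the 11 other libraries 0 each. Whole libraries held 2499, 5113 and 6446 C-to-U sites in hA3A-BE3 cells, 42 to 53 in the 9 controls and 43 and 44 in PE3 cells. Over the series, 1057 of the 1072 C-to-U sites called in every hA3A-BE3 library were called in no library of another group. With so few C-to-U sites in the other groups, the 0 in the 8 genes is no result about these genes. Per 1000 C-to-U sites of the library, the 8 genes held 3.20, 2.54 and 2.33 in replicates 1, 2 and 3. FASN contributed 6, 6 and 8 sites, SCD 1, 5 and 4, and ACLY 1, 1 and 0. SREBF1 had its single site in replicate 2, and the 3 sites of SREBF2 were all in replicate 3. A site missing from a list was unedited, uncovered or under the limits of calling, so absence is not a level of 0.

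FASN and SCD were the members with sites that recurred, meaning sites that every hA3A-BE3 list holds and no list of another group does. FASN had 3 and SCD 1. Such a site was found in 2 of the 8 members, or 2 of the 5 with any called site, where 15.7% of all 5608 genes with a called site had one. FASN and SCD were also the members with more C-to-U sites in every hA3A-BE3 library than in any other library, a property of 21.4% of those genes. Among all 10353 distinct C-to-U sites of hA3A-BE3 cells 10.2% were recurrent, and 4 of the 24 in these genes were. Because the members were chosen on this contrast, nothing is read from these shares. In number of distinct C-to-U sites FASN, with 12, was exceeded by 14 of the 4670 genes that had any in hA3A-BE3 cells, SCD, with 7, by 100. These ranks take no account of transcript length or coverage, and nothing is read from them either. Per kb of transcript FASN had 1.40 distinct sites and SCD 1.31.

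The sites of FASN were spread over its coding sequence. All 12 sites lay in coding exons of the transcript ENST00000306749.3 (chromosome 17, 82078333 to 82098332, minus strand, 43 exons), from codon 148 in exon 4 to codon 2250 in exon 39 of its 2511 codons. Of the 12 changes, 11 were synonymous: 9 left an isoleucine codon coding for isoleucine, F148F a phenylalanine and L1353L a leucine. S1675L was the single change of an amino acid. In the other FASN transcript that holds them, of 2509 codons, the numbers after 834 are lower by 2.

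The highest level in FASN was at I834I (chromosome 17, position 82088481, exon 16). Reads with U made up 25.0% in replicate 1 (19 of 76 covering reads, exact 95% binomial interval 15.8 to 36.3%), 43.2% in replicate 2 (32 of 74, 31.8 to 55.3%) and 38.4% in replicate 3 (48 of 125, 29.8 to 47.5%). The mean was 35.5% ± 9.45 (SD, n = 3). Replicate 1 was lowest, though its interval overlapped those of both others. The mean was exceeded at 71 of all 1057 recurrent sites (6.72%), whose median was 13.9%. Binomial intervals here cover counting error only, since reads without molecular identifiers are not independent molecules.

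I184I (position 82093322, exon 5) lies in the ketosynthase domain, which joins the growing chain to the next unit. Here replicate 1 was highest: 31.0% in replicate 1 (13 of 42 reads, 17.6 to 47.1%), 12.5% in replicate 2 (4 of 32, 3.51 to 28.99%) and 8.33% in replicate 3 (4 of 48, 2.32 to 19.98%), a mean of 17.3% ± 12.04 (SD, n = 3). Replicate 1 stood 2.48 times above the higher of the other libraries, with intervals that overlap. Over all 1057 recurrent sites the median of this ratio was 0.627 and the next highest was 1.95, and replicate 1 held the highest of the 3 levels at 123 sites (11.6%). Without replicate 1 the mean at I184I was 10.4%. The site was singled out after its values were seen.

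I1888I (position 82083017, exon 33), in the ketoreductase domain, was at 6.85% (5 of 73 reads, 2.26 to 15.3%), 11.4% (4 of 35, 3.20 to 26.7%) and 18.6% (11 of 59, 9.69 to 30.9%) in replicates 1, 2 and 3. The mean was 12.3% ± 5.95 (SD, n = 3), under the 13.9% median of all recurrent sites. The cytosine of the next codon, I1889I at position 82083014, was called in replicate 3 alone, at 5.36% (3 of 56 reads). The lists also give a read depth larger than the covering reads. Over it the means were 10.5% at I184I, 23.7% at I834I and 7.55% at I1888I.

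The sites of FASN in a pair of libraries were S1675L and I2250I. S1675L (position 82084049, exon 29), in the enoyl reductase domain, reached 25.0% (3 of 12 reads) in replicate 1 and 23.1% (3 of 13) in replicate 2, with exact 95% intervals of 5.49 to 57.2% and 5.04 to 53.8%. With 12 and 13 reads its level was poorly resolved. Its read depth per Gb of mapped bases was 3.03 and 4.09, where the lowest of any called site was 3.01. I2250I (position 82080768), in the thioesterase domain that releases the finished chain, was at 10.8% (4 of 37 reads) in replicate 1 and 5.56% (3 of 54) in replicate 3. The 7 sites called in 1 library ran from I1889I at 5.36% to L1353L at 13.6% (3 of 22 reads). With F148F, I290I, I308I, I690I and I2063I they lay at 3 to 5 mutated reads each.

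**Figure D1:**
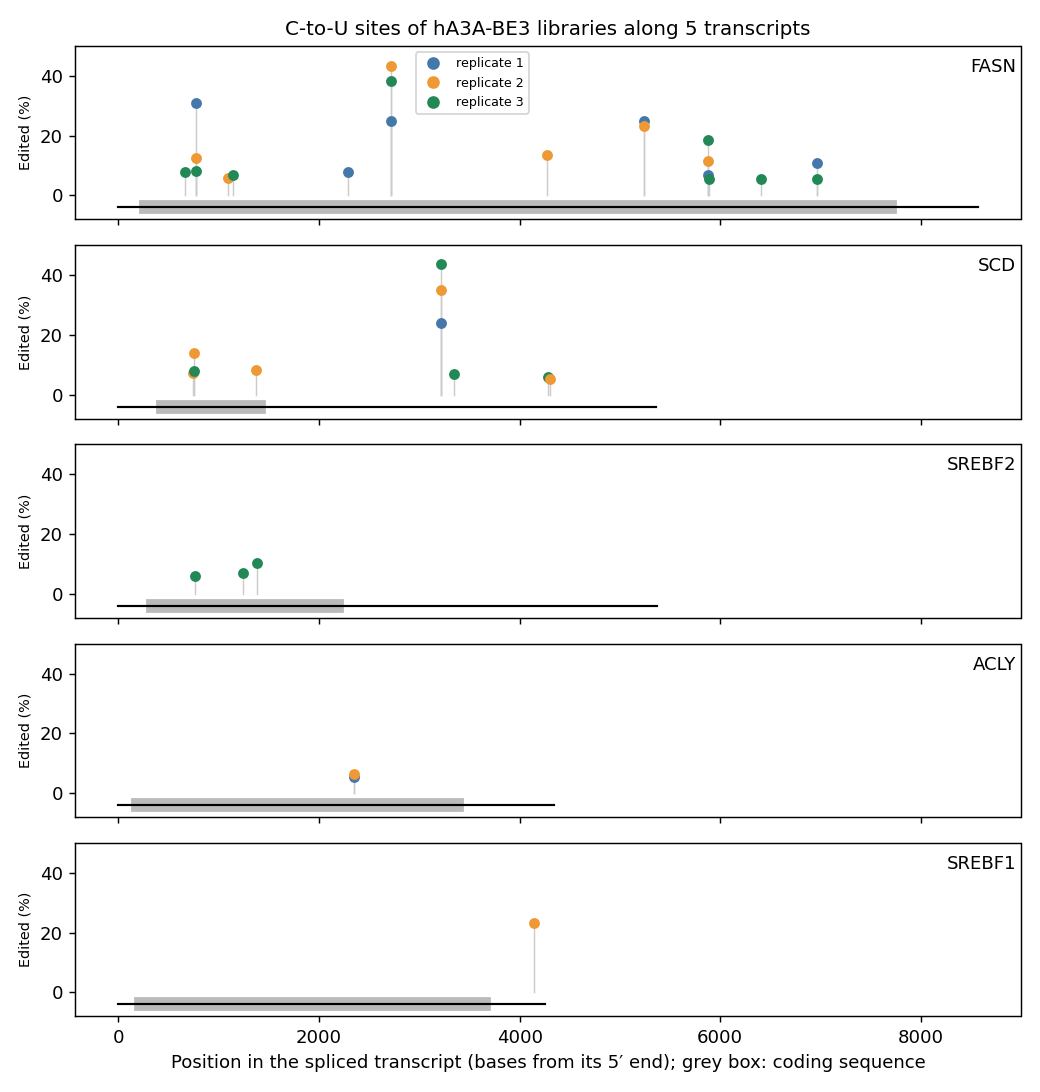
Edited fraction (vertical axis, percent of covering reads) of each called C-to-U site along the spliced transcripts of FASN, SCD, SREBF2, ACLY and SREBF1 (horizontal axis, bases), coloured by hA3A-BE3 replicate. The sites of FASN spread over the coding sequence, and the tallest site of SCD lies in the 3' UTR.

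Of the 7 C-to-U sites of SCD 4 were in the 3' UTR and 3 in coding sequence (transcript ENST00000370355.2, chromosome 10, 100347124 to 100364834, plus strand, 6 exons). Its coding sequence spans bases 382 to 1458 of a transcript of 5362, that of FASN bases 220 to 7752 of 8565, and 25.2% of all C-to-U sites of hA3A-BE3 cells lay in 3' UTRs. The recurrent site was in the 3' UTR, at position 100362689 in exon 6, the last. Its levels were 23.9% (17 of 71 reads, 14.6 to 35.5%), 34.9% (30 of 86, 24.9 to 45.9%) and 43.6% (48 of 110, 34.2 to 53.4%) in replicates 1, 2 and 3. The mean of 34.2% ± 9.87 (SD, n = 3) was exceeded at 82 of the 1057 recurrent sites (7.76%) and lay within 1 SD of FASN I834I. Over the larger read depth it was 22.02%. The other 3' UTR sites were each called in 1 library, at 5.13 to 6.90%.

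Of the 3 coding sites of SCD, 2 changed an amino acid and 1 was synonymous, and none was in all 3 libraries. Over all coding sites of hA3A-BE3 cells 35.5% were missense and 14.8% made a stop. R121C was called in replicate 2 at 7.14% (3 of 42 reads). R126C, 5 codons on at position 100352431 in exon 3, was called in replicate 2 at 14% (7 of 50 reads, 5.82 to 26.7%) and in replicate 3 at 7.81% (5 of 64, 2.59 to 17.3%). Both arginines stand directly after histidines of the first histidine motif, which binds the metal ions of the desaturase. L330L was synonymous, at 8.11% (3 of 37 reads) in replicate 2. Replicate 1 held none of the coding sites of SCD.

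In ACLY 1 synonymous site was called, I740I (chromosome 17, position 41883167, minus strand, exon 20 of 29). It stood at 5.32% (5 of 94 reads) in replicate 1 and 6.49% (5 of 77) in replicate 2, just above the lowest edited fraction of any list, 5.02%.

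Of the transcription factor genes, SREBF2 carried the only stop codon of the 8 genes. Its 3 sites were called in replicate 3 alone: Q369X at 10.4% (5 of 48 reads, 3.47 to 22.7%), I321I at 7.04% (5 of 71) and S161F at 6.12% (3 of 49). These numbers follow the longest transcript, of 654 codons. In the transcript of 1141 codons they are Q399X, I351I and S191F, so the stop (chromosome 22, position 41875442, plus strand, exon 6) falls in the N-terminal part that acts in the nucleus and ahead of the membrane segments. SREBF1 had a 3' UTR site (chromosome 17, position 17812186, minus strand) in replicate 2, at 23.1% of only 13 reads (3 mutated, 5.04 to 53.8%).

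Most edited bases of these genes followed a U, and in FASN most ended the run CAUC. U preceded the edited C at 22 of 24 sites (91.7%), against 95.3% of the 10186 exonic C-to-U sites of hA3A-BE3 cells. The exceptions were SCD R126C, after a C, and the SREBF1 site, after a G. CAU preceded it at 12 of 24 sites, 8 of them in FASN, against 28.3% of all exonic sites and 45.3% of recurrent ones. In the FASN transcript the run CAUC occurs 73 times on the sense strand and 8 were called. All 8 stood before G or A, which follow 38 of the 73, so 21.1% of CAUC before G or A and 0 of 35 before C or U were called. Over the transcripts of the other 7 genes 3 of 72 and 1 of 86 were called. These runs were examined after the data had been seen, and the reads at positions not called are not in the lists.

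By codon, isoleucine led, mostly through FASN. Of 19 coding sites 14 (73.7%) left the protein as it was, with 4 missense changes and 1 stop codon besides. Isoleucine was kept at 11 (57.9%), of which 9 were among the 12 coding sites of FASN. In SCD it was 0 of 3, in ACLY 1 of 1 and in SREBF2 1 of 3. Over the 7236 coding sites of hA3A-BE3 cells 49.7% were synonymous and 29.2% kept isoleucine. Over the recurrent coding sites of the series the shares were 58.0% and 40.7%. FASN has 81 AUC codons in its coding sequence, and 9 of them (11.1%) were called, against 10 isoleucine codons of the other kinds. The other 7 genes have 175 AUC codons together, with 2 called.

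The members without a called site hold candidate bases too. The transcripts of ACACA, HMGCS1 and SQLE hold 975 UpC, 70 CAUC and 83 AUC codons between them, and 0 were called. ACACA, the longest transcript of the 8 with 9961 bases, has 67 AUC codons. Whether these 3 transcripts were covered deeply enough for a call is not shown by the lists.

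The sites of highest level in FASN and SCD lie in runs that can pair with themselves. For each C after a U, the longest unbroken stem was sought with the C in a loop of 3 to 6 bases, counting G-U pairs. FASN I834I has 6 pairs around a loop of 5 bases and the SCD 3' UTR site 5 pairs around a loop of 6, all Watson-Crick, with the pairing bases in capitals here.
FASN I834I: atctcCCCACTcatcaAGTGGGaccacag
SCD 3' UTR: ctagctGCCACtttcacGTGGCctccgca
The edited C is the fourth base of the loop in both. I184I had 4 pairs and I1888I 1. Stems of 5 or more pairs were found at 4 of the 22 sites after U in these genes (18.2%), at 11.4% of all 2612 UpC of the 8 transcripts and at 34.2% of 1034 recurrent sites after U in the series. With Watson-Crick pairs alone the figures were 2 of 22 (9.09%), 1.76% and 19.2%. Of the 7180 sites after U called in 1 hA3A-BE3 library, 21.2% had such a stem, and 8.52% with Watson-Crick pairs alone. Among the 4 recurrent sites of these genes it was 2 either way. Pairing is read from letters only, and over the 1034 recurrent sites after U the median level was 14.2% with 6 or more pairs, 14.3% with 5 and 13.4% with under 5.

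Most sites were seen once. Of the 24 C-to-U sites, 16 (66.7%) were called in 1 hA3A-BE3 library, 4 in 2 and 4 in 3, against 74.6% in 1 library over all sites. Replicate 1 held 1 of the 16, replicate 2 held 6 and replicate 3 held 9, where the 7720 such sites of the series divided as 916, 2827 and 3977. Their median level was 6.97% and 13 of 16 were under 10%, against a median of 8.11% and 5070 of 7720 under 10% over the series. Mapped bases were 7.27, 5.87 and 8.87 Gb in replicates 1, 2 and 3.

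Both sites of other changes lay in the 3' UTR of SCD, and each was also called outside hA3A-BE3 cells. A G-to-A site at position 100362083 (chromosome 10) was called in 11 of 14 libraries, at 5.78 to 13.8%. Levels were 5.78, 8.85 and 6.29% in non-transfected cells, 6.72 and 6.67% in EGFP replicates 1 and 2, and 8.07 and 6.01% in Cas9 replicates 1 and 3. They were 9.17, 9.35 and 6.02% in hA3A-BE3 cells and 13.8% (8 of 58 reads, 6.15 to 25.4%) in PE3 replicate 2. The means of 6.97% ± 1.65 in non-transfected cells and 8.18% ± 1.88 in hA3A-BE3 cells (SD, n = 3 each) differed by less than 1 SD. An A-to-I site at position 100361844 was called in EGFP replicate 2 at 5.52% (8 of 145 reads) and in hA3A-BE3 replicate 1 at 6.67% (6 of 90). With so few calls, whether this site goes with the base editor is not shown.

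The G-to-A site is the one place in these genes where read depth can be set side by side in every group. Depth per Gb of mapped bases was 36.1 to 42.3 in the 3 libraries of non-transfected cells, a mean of 39.5 ± 3.16. In hA3A-BE3 cells it was 20.5 to 25.4, a mean of 22.8 ± 2.44 (SD, n = 3 each). The share of all sites whose depth differs between these groups in the same way was not computed, so nothing is read from the difference. EGFP libraries had 26.8 and 32.1, Cas9 30.7 and 23.3, and PE3 replicate 2 had 27.9. Non-transfected and hA3A-BE3 cells differ in transfection as well as editor, and Cas9 replicate 3 lay within the range of hA3A-BE3. In bulk RNA fewer cells that express a gene and less RNA per cell cannot be told apart. Depth at 1 position is no measure of the gene's expression, and the 3 libraries without the call give no value.

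**Figure D2:**
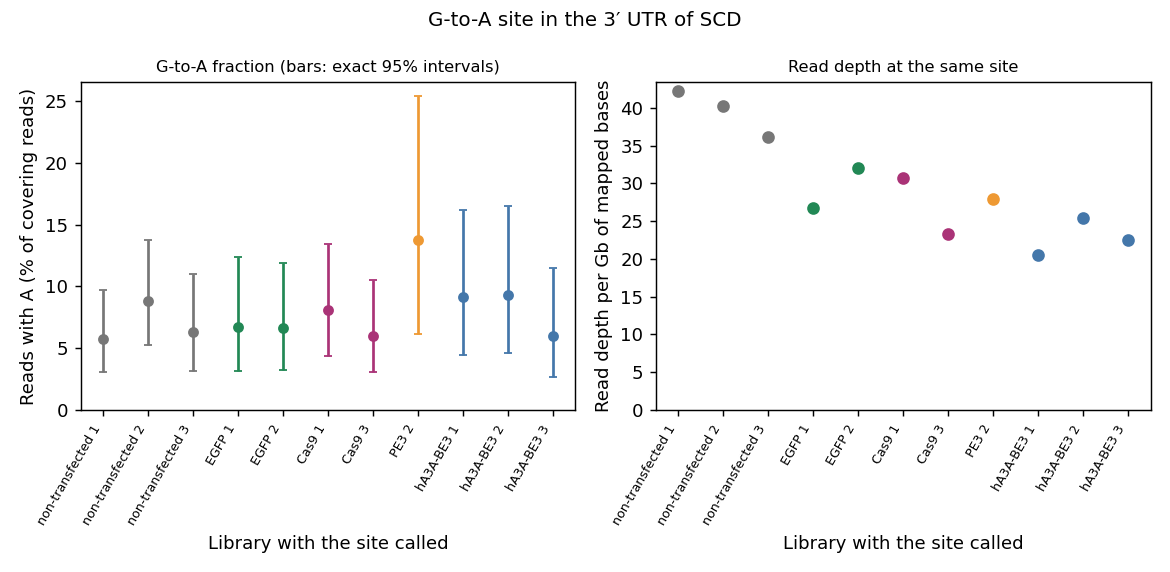
The G-to-A site in the 3' UTR of SCD in the 11 libraries where it was called (horizontal axes): on the left the percent of covering reads with A, with exact 95% binomial intervals, on the right the read depth per Gb of mapped bases. Levels of 5.78 to 13.8% have overlapping intervals, and depth is highest in the 3 libraries of non-transfected cells.

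Further genes of the pathways were taken from 3 lists of 75 genes in all. Of these, 40 had any called site and 6 had a recurrent C-to-U site, or 15% of the 40, near the 15.7% of all genes with a called site and so no result about the lists. The lists held 26, 30 and 37 C-to-U sites in the hA3A-BE3 libraries and 0 or 1 per control. In fatty acid synthesis and modification 1 of 31 genes had a recurrent site, or 9.09% of the 11 with any called site. The gene was SCD5, a further stearoyl-CoA desaturase, with a 3' UTR site at 30.6% ± 11.5 (SD, n = 3). This site was covered by 16 to 31 reads.

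In the mevalonate and sterol list 3 of 21 genes had a recurrent site, or 23.1% of the 13 with any called site. With so few genes nothing is read from this share. SC5D, sterol-C5-desaturase, had 3' UTR sites at 15.8% ± 9.04 and 13.7% ± 5.77. PMVK, phosphomevalonate kinase, had a 3' UTR site at 12.9% ± 4.16 (SD, n = 3 throughout).

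Among 23 genes that control the pathways 2 had a recurrent site, or 12.5% of the 16 with any called site. The share over all genes with a called site was 15.7%, and with so few genes nothing is read from the 12.5%. PRKAA1, a catalytic subunit of the AMP-activated kinase that phosphorylates ACACA, had a 3' UTR site at 21.9% ± 8.07 (SD, n = 3). SCAP, which escorts SREBF proteins, had 4 C-to-U sites in hA3A-BE3 cells, none of them recurrent.

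The genes most like FASN in C-to-U sites per library were UBR4, DNAJB1 and SMG5, by Euclidean distance of log2(sites + 1) over the 14 libraries. UBR4 had 7, 7 and 9 sites in hA3A-BE3 cells (distance 0.312), DNAJB1 5, 8 and 9 (0.452) and SMG5 4, 6 and 9 (0.509). All 3 had 0 C-to-U sites in the 11 other libraries, as FASN did. These zeros follow from the choice by distance over all 14 libraries and are no finding. UBR4, DNAJB1 and SMG5 had 1, 4 and 3 recurrent sites.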

How the data were processed

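Total RNA of 293FT cells was depleted of ribosomal and globin RNA and read as stranded pairs of 150 bases, per the labels' protocols. The submitters' processing notes name BWA 0.7.17, GRCh38 and hg38. For the caller and its filters, nothing is given in the sources used here. For each library, 1 list of called sites was deposited by the authors. Deposited counts are covering reads, reads per base and mutated reads, and the deposited edited fraction is mutated over covering reads. A deposited signal column equals read depth divided by a constant per library, read here as mapped Gb. Every site had at least 2 mutated reads.

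With the base columns read as A, C, G and T, 17541 of 17541 exonic sites matched the base of the GENCODE 29 transcript. Sites were assigned to basic transcripts with coding placed ahead of UTRs, UTRs ahead of non-coding exons and introns last, the longest transcript first. Protein changes use single letters, X for a stop. Annotation and stem functions were checked on simulated transcripts. Exact binomial intervals came from scipy 1.17.1. Groups follow the labels' treatment and replicate numbers the titles. Replicate 1 of PE3 was not analysed here.

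The members and lists were chosen with earlier results of these data known. Named were all members, their sites in at least 2 hA3A-BE3 libraries, stop codons, sites of other changes, pathway genes with a recurrent site and the 3 genes nearest to FASN. Some pathway genes that this rule names are not reported here. SCAP and the other member sites called in 1 library were added after their values were seen. Alternatives were limits of 20 or 50 covering reads, 10% edited fraction or 5 mutated reads, the gene's strand, all GENCODE transcripts, other scales and definitions, and leaving out each hA3A-BE3 library.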

Additional observations from a re-analysis of the deposited data

How the results depend on the processing

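No paired analysis was possible because the results come from no test. The 8 genes' mean of 12 sites in a hA3A-BE3 library was 7.33 with at least 50 covering reads and 5.67 with an edited fraction of at least 10% or at least 5 mutated reads. It was 1.67 per Gb of mapped bases and 2.69 per 1000 C-to-U sites. The 24 distinct sites became 15 at 50 reads and 10 at either other limit, and 15 to 23 with a library left out, fewest without replicate 3. The 4 recurrent sites became 2 at each of these 3 limits (FASN and SCD kept 1 each) and 8 when 2 of 3 libraries sufficed. At an edited fraction of at least 10%, the UpC share was 80% and the synonymous share 62.5%. The 6 pathway genes with a recurrent site became 3 at 50 reads or 5 mutated reads, and 7 to 12 with a library left out, most without replicate 2. Sites after U with a stem numbered 2, not 4, with Watson-Crick pairs alone. Over the larger read depth in place of covering reads, FASN I834I stood at 23.7% and the SCD 3' UTR site at 22.02%. The strand of the gene and all GENCODE transcripts changed none of the counts of sites and genes. Sites under 20 reads, S1675L and the SREBF1 site among them, have intervals too wide to rank.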
